A study of Mus musculus with 2 samples.

Results

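The integrin subunits of adult mouse heart were described from 10 genes, chosen by symbol: the alpha subunits Itga1, Itga3, Itga5, Itga6, Itga7, Itga8, Itga9 and Itgav and the beta subunits Itgb1 and Itgb5. They are 10 of the 27 integrin subunit genes considered and 10 of 55536 genes in the deposited gene tables. Each of the 10 symbols matched 1 gene. The study sequenced total RNA with ribosomal RNA reduced from the hearts of 2 males of strain B6CASTF1/J, an F1 hybrid of the B6 and CAST mouse strains, at 2 months of age. Both libraries belong to 1 group with no treatment or altered gene named in the labels, so no condition could be compared, and values are given per mouse with their spread. The labels number the mice separately as biological replicates under a single donor entry. With 2 libraries of 1 group there is no pattern across conditions to match, so no gene is named for a pattern like that of a member.

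Integrins are membrane receptors built from an alpha and a beta subunit, which together bind the extracellular matrix outside the cell and, through short cytoplasmic tails, the actin cytoskeleton inside it. The alpha subunit largely sets the ligand: alpha3, alpha6 and alpha7 with beta1 bind laminins, alpha1 with beta1 binds collagens, alpha5, alpha8 and alphav recognise ligands with the RGD motif such as fibronectin, nephronectin and vitronectin, and alpha9 with beta1 binds tenascin-C, osteopontin and related ligands. The beta5 subunit pairs with alphav. In cardiomyocytes integrins sit mainly at costameres, where they tie the sarcomeres to the laminin-rich basement membrane, and alpha7 is the laminin-binding alpha subunit typical of adult striated muscle. Alternative splicing changes the cytoplasmic tails of alpha3, alpha6, alpha7 and beta1, and beta1D is the tail form of striated muscle.

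The tail sequences are shown first because the transcript tables divide Itgb1, Itga7 and Itga6 between forms that differ in this stretch. Each was read from the annotated transcripts (GENCODE M21, build mm10), 5′ to 3′ on the coding strand, from the first base after the alternative splice junction to the stop codon. Capitals in the beta1 tails mark the codons of the NPxY motif, whose membrane-proximal and membrane-distal copies are binding sites of talins and kindlins, and the stop codon. The search for it used the coding strand and any frame. Lines 1 and 2 of the beta1 pair lie at chr8:128726983-128727057 and chr8:128732023-128732088 on the plus strand.
beta1 tail with the alternative exon (Itgb1-204): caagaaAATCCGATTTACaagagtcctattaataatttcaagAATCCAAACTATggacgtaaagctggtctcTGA
beta1 tail without it (Itgb1-201): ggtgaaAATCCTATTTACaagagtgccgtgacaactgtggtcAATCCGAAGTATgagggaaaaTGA
The exon ends in its own stop codon, so the variable end of the tail, after the stretch that both forms share, has 25 codons, stop included, in a message that holds the exon and 22 in a message that skips it. Aligned without gaps, 41 of 66 bases were identical (62.1%). The motif stood at positions 7 and 43 of both, counted from 1 at the first base shown. Of consecutive 66-base windows along all protein-coding transcripts, 0.22% held it at least once.

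Capitals in the alpha tails mark GGNTTCTTN, the codons of the membrane-proximal motif shared by alpha subunits, and the stop codon, and the search used the coding strand. The alpha7 tail with the exon joins chr10:128956611-128956723 to chr10:128957621-128957681, and the tail without it lies at chr10:128957621-128957851, both on the plus strand.
alpha7 tail with the alternative exon (Itga7-204): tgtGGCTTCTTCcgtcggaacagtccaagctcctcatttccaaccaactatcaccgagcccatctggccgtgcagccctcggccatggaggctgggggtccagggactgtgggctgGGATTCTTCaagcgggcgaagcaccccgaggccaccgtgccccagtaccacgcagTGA
alpha7 tail without it (Itga7-201): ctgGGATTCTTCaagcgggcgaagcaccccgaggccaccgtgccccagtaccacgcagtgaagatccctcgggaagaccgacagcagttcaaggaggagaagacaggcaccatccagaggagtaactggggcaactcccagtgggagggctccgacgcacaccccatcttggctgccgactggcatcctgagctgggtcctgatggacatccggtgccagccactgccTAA
The alpha6 tails lie at chr2:71853534-71853641 and chr2:71855854-71856015 on the plus strand.
alpha6 tail with the alternative exon (Itga6-201): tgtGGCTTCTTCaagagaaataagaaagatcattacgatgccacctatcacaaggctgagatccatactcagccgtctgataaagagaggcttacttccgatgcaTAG
alpha6 tail without it (Itga6-202): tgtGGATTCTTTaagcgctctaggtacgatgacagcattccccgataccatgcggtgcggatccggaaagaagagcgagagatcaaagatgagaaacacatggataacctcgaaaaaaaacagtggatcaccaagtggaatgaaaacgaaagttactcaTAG
The tails with the exon are known as the A forms and those without it as the B forms. All 4 alpha sequences held the motif at position 4, and the alpha7 tail with the exon held it again at position 117, in bases of the last exon that are there read in another frame. Position by position, 51 of 174 bases were identical between the alpha7 tails (29.3%) and 48 of 108 between the alpha6 tails (44.4%). Both alpha7 tails hold the bases at chr10:128957621-128957681, but at different positions. The comparison from the first base could not match these, so 29.3% leaves that shared stretch out. The motif occurred in 0.874% of consecutive 108-base windows along all protein-coding transcripts.

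Itgb1 was the most abundant of the 10 genes, followed by Itga7 and Itgb5, and Itga3 and Itga8 were the lowest. All 10 reached 1 TPM (a transcript level scaled to the gene's length and the size of the library) in both mice, which 49.8% of protein-coding genes and 21.5% of all genes did. The members were chosen with earlier results of these data known, so detection of all 10 can follow from that choice. The median over the 10 genes was 14.6 ± 0.378 TPM (SD, n = 2 mice), and over the 10970 protein-coding genes at or above 1 TPM in both mice it was 8.69 ± 0.198 TPM. The libraries held 38963569 and 44321172 expected counts in genes for replicates 1 and 2. The tissue label was checked against 6 cardiomyocyte markers, whose median was 3853 ± 184 TPM, with Myh6, the main myosin heavy chain of adult mouse heart, at 7294 and 8105 TPM. All 6 markers of each of the lists for endothelial cells, fibroblasts, pericytes and smooth muscle cells, and macrophages were also at or above 1 TPM in both mice, so the levels are sums over several cell types. In such bulk samples fewer cells of a type and less RNA per cell cannot be told apart.

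**Figure D1:**
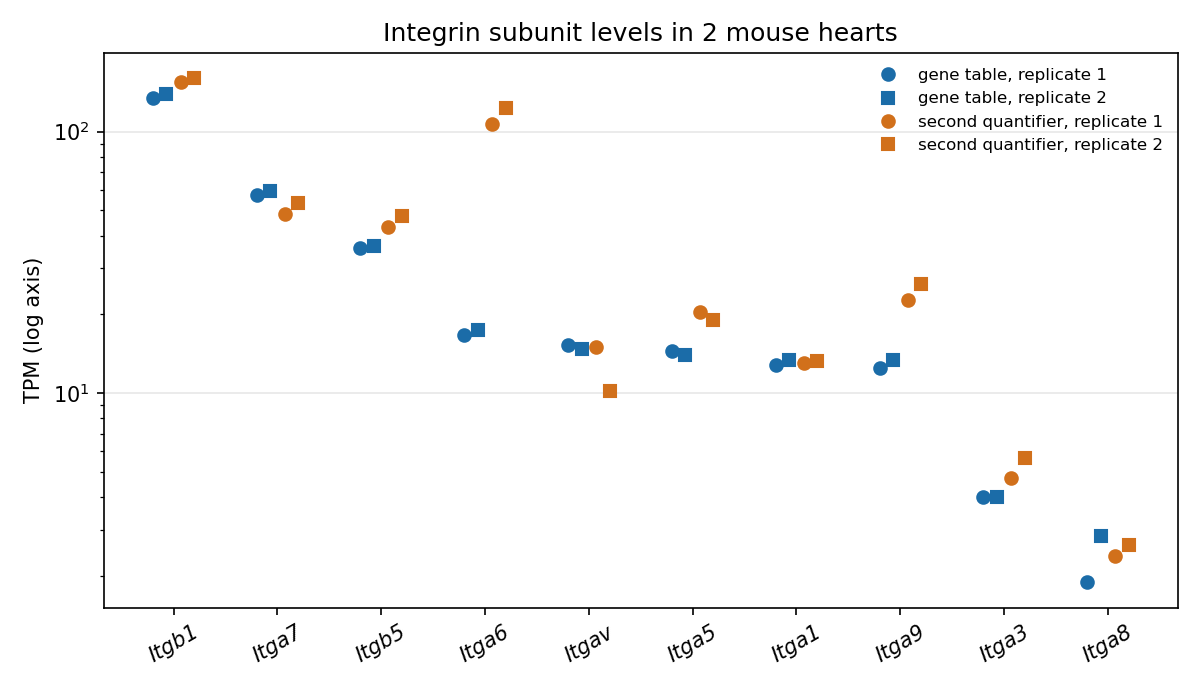
Level of each integrin gene in TPM on a log axis, with circles for replicate 1 and squares for replicate 2, blue for the gene table and orange for the second quantifier. Blue points of a gene lie close together and run from Itgb1 at 135 and 139.7 TPM down to Itga8 at 1.89 and 2.84 TPM, and Itga6 stands out with orange points near those of Itgb1.

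Among the beta subunits, Itgb1 (ENSMUSG00000025809.15, chr8:128685654-128733200, plus strand, mm10), the common partner of most matrix-binding alpha subunits, stood at 135 and 139.7 TPM in replicates 1 and 2 (137 ± 3.33 TPM). It ranked 422 among the 10970 detected protein-coding genes and supplied 44.2 ± 0.121% of the TPM of the 10 genes. Itgb5 (ENSMUSG00000022817.15, chr16:33829665-33949338, plus strand), the partner of alphav in a vitronectin receptor, stood at 35.96 and 36.5 TPM (36.2 ± 0.396 TPM). Within each mouse the Itgb1 level was 3.75 and 3.83 times that of Itgb5, so the groups of values were far apart. Itgb5 in turn was 2.36 and 2.47 times Itgav, its alpha partner. The authors' second transcript table, which they quantified directly from reads, gave 2.87 and 4.67 times, so this ratio depended on the table and there also on the mouse. In the gene table the Itgav level also sums the short models Itgav-205 (4.63 and 4.12 TPM) and Itgav-206 (3.89 and 3.15 TPM).

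Of the laminin-binding alpha subunits, Itga7 (ENSMUSG00000025348.9, chr10:128933818-128958282, plus strand) led with 57.2 and 59.5 TPM (58.3 ± 1.58 TPM), rank 947. Itga6 (ENSMUSG00000027111.15, chr2:71745616-71858416, plus strand), a laminin receptor subunit also used by endothelial and epithelial cells, stood at 16.7 and 17.4 TPM (17.0 ± 0.453 TPM). Itga3 (ENSMUSG00000001507.16, chr11:95044474-95076801, minus strand), a laminin receptor subunit best known from epithelia, stood at 3.99 TPM in each mouse. In the gene table the level of Itga7 was thus 3.42 ± 0.00203 times that of Itga6, whereas in the second table the order turned and it was 0.443 ± 0.0176 times. Together these 3 genes held 57.8 and 58.1% of the TPM of the 8 alpha genes, and 68.5 and 71.9% in the second table. Itga7 alone held 42.6 ± 0.237%, and 20.9 ± 0.126% in the second table, where a single short transcript of Itga6, described with the comparison of the tables, held most of the Itga6 level.

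Itga1 (ENSMUSG00000042284.10, chr13:114953096-115101964, minus strand), which forms a collagen receptor, stood at 12.8 and 13.4 TPM (13.1 ± 0.403 TPM) and held 9.54 ± 0.0884% of the alpha TPM (5.40 ± 0.246% in the second table). In the annotation it overlaps Pelo and Gm49395 on its own strand and Gm10734 on the other.

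The RGD-binding alpha subunits were at moderate to low levels. Itgav (ENSMUSG00000027087.11, chr2:83724397-83806916, plus strand), the alphav subunit that pairs with several beta subunits, stood at 15.3 and 14.8 TPM (15.0 ± 0.339 TPM). Itga5 (ENSMUSG00000000555.8, chr15:103344286-103366763, minus strand), the classical fibronectin receptor subunit, stood at 14.5 and 13.9 TPM (14.2 ± 0.417 TPM). Itga8 (ENSMUSG00000026768.10, chr2:12106632-12301922, minus strand), a receptor subunit for nephronectin found on smooth muscle and other mesenchymal cells, stood at 1.89 and 2.84 TPM (2.37 ± 0.672 TPM) and ranked 9498. These 3 genes together held 23.1 ± 0.560% of the alpha TPM (14.4 ± 2.61% in the second table), most of it in the gene table from Itgav and Itga5.

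Itga9 (ENSMUSG00000039115.13, chr9:118606690-118901003, plus strand) stood at 12.5 and 13.3 TPM (12.9 ± 0.601 TPM), 9.43 ± 0.235% of the alpha TPM. Itga8 and Itga9 each overlap an antisense gene, E030013I19Rik and Gm2415, Itga7 overlaps Mettl7b on the opposite strand at its 3′ end, Itga5 contains the microRNA gene Mir6963, and Itgav and Itga6 overlap predicted genes. Whether counting used strand is not given in the sources used here, so reads from these stretches could be assigned to either gene. No overlapping gene was annotated for Itgb1, Itgb5 or Itga3. The main Itgb5 transcripts share 8.70 to 13.5% of their 31-base words with Gm38317, a processed pseudogene elsewhere in the genome, so reads from that stretch could be divided between both.

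In the order by mean TPM in the gene table, 8 of 9 neighbouring pairs were apart. This means that the lower mouse of the higher gene lay above the higher mouse of the lower gene. The exception was Itga1 and Itga9, whose means differed 1.01-fold and whose mice overlapped. The authors' own credibility intervals for the level in a mouse are a stricter measure. They overlapped in both mice for Itga6 and Itgav, Itgav and Itga5, and Itga1 and Itga9, and in 1 mouse for Itga5 and Itga1 and for Itga3 and Itga8. The 5 genes from Itga6 to Itga9 therefore lay in a narrow band from 17.0 to 12.9 TPM, where the mean of each was at most 1.14 times that of the next. The steps with no overlap in either mouse were Itgb1 over Itga7 (2.35-fold), Itga7 over Itgb5 (1.61-fold), Itgb5 over Itga6 (2.13-fold) and Itga9 over Itga3 (3.24-fold). Gene TPM sums all annotated models of a gene, partial and non-coding ones included. By the leading coding transcript alone, the order within the band was another. Itga5-201 stood at 12.5 and 13.6 TPM and Itga9-201 at 12.1 and 12.5 TPM in replicates 1 and 2. Itga6-201 stood at 8.70 and 6.26 TPM, Itga1-201 at 6.30 and 6.80 TPM and Itgav-201 at 5.63 and 6.48 TPM.

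Summed over the 8 genes, the alpha TPM was 0.999 and 0.995 times the Itgb1 TPM in replicates 1 and 2 of the gene table, and 1.51 and 1.58 times in the second table. Without Itgav, which also serves beta subunits other than beta1, the ratio was 0.888 ± 0.00246 in the gene table and 1.46 ± 0.0790 in the second, so the tables lay on either side of equal levels. Both sides of these ratios sum all annotated models of a gene, partial and non-coding ones included. In the gene table the partial model Itgb1-204 added 42.8 and 41.4 TPM to Itgb1, and the partial Itga7-204 added 14.4 and 11.9 TPM to the alpha sum. The ratios near 1 are thus ratios of summed models and not of messages. These are ratios of RNA levels, and protein was not measured.

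The second table gave the same places to Itgb1, Itga5, Itga1 and the lowest 2 genes but placed Itga6 second, Itga9 at place 5 and Itgav at place 8. Itga7 and Itgb5 followed Itga6 there, at places 3 and 4. Itga6 stood at 107 and 124 TPM there, 6.38 and 7.11 times its level in the gene table. It was the 1 member of 10 that differed 2-fold or more between the tables in both mice, and over all 11936 genes detected in both mice 5.27% did, and 1.59% were 2-fold or more higher in the second table. Most of the Itga6 signal lay on Itga6-205, a processed transcript of 443 bases in 2 exons, with 85.2 and 102 TPM in the second table against 0.290 and 0.520 TPM in the alignment-based table. Of the 31-base words of Itga6-205, 63.7% also occurred in transcripts of 21 other genes. Without this transcript the second table put Itga6 at 21.5 ± 0.0437 TPM and the summed alpha TPM at 0.951 times that of Itgb1 (chosen after seeing the data). For the other 9 genes the second table differed from the gene table by less than 2-fold in both mice, with Itga9 farthest apart (22.7 and 26.2 TPM).

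The differences between the 2 hearts were small for the 10 genes. None was 2-fold or more apart in TMM-scaled expected counts, and 0.57% of the 12453 genes with a mean of at least 50 counts were. Replicate 2 was higher for 8 of 10 genes, with log2 ratios of replicate 2 over replicate 1 between -0.03 for Itgb5 and 0.39 for Itga8. The median log2 ratio was 0.04 over the 10 genes and 0.005 over all genes tested. The share of all genes higher in replicate 2 was not counted, so the 8 of 10 is not read as a trait of integrins. The exact 95% counting interval lay outside 0 for 2 genes, and it did so for 19.6% of all genes tested. For Itga7 the log2 ratio was 0.08 (0.03 to 0.13), and for Itga8 it was 0.39 (0.18 to 0.61), from 299 and 461 counts. These intervals cover counting error alone, and with 1 library a mouse no test between the mice was made.

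The pericyte and smooth muscle markers Acta2, smooth muscle actin, and Myh11, smooth muscle myosin, were also higher in replicate 2, with log2 ratios of 0.51 and 0.37, while the pericyte markers Pdgfrb and Rgs5 had 0.00 and 0.05. The summed level of the 6 genes of that list was 175 and 199.9 TPM in replicates 1 and 2, none of the 6 was 2-fold apart or at 0, and their part in the Itga8 difference was not tested.

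**Figure D2:**
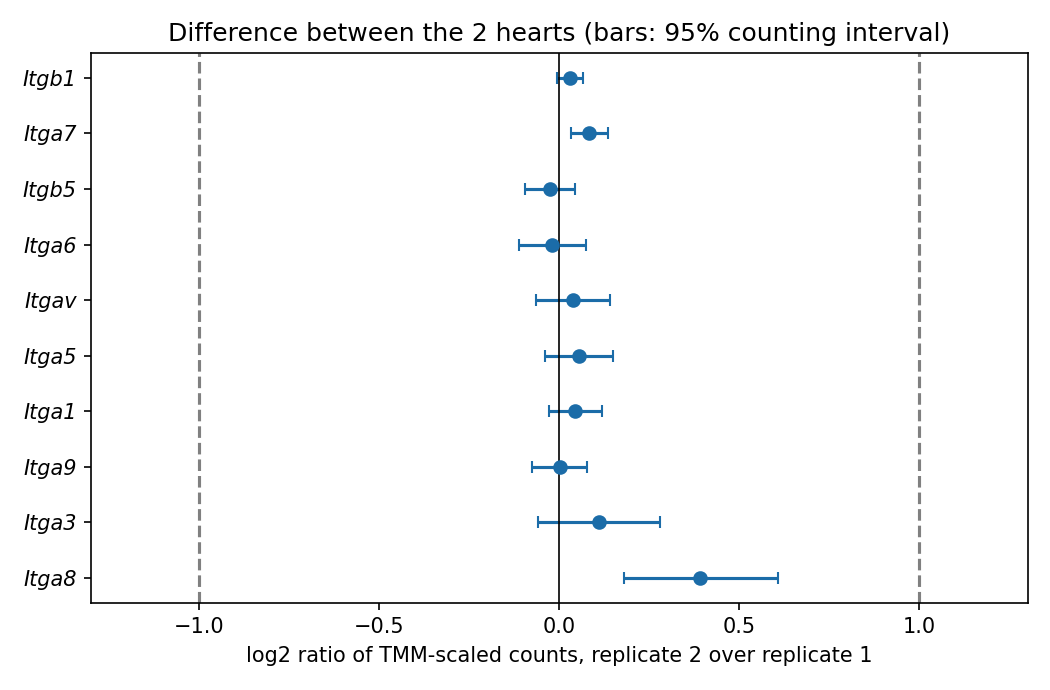
Log2 ratio of TMM-scaled expected counts, replicate 2 over replicate 1, for each integrin gene, with bars for the exact 95% counting interval and dashed lines at 2-fold. Points from Itgb1 to Itga3 lie between -0.03 and 0.11, and Itga8 lies at 0.39, inside the dashed lines.

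By TPM of annotated models, the cytoplasmic tail of beta1 was divided between both forms. Itgb1-201, the full model of 16 exons that skips the 81-base exon at chr8:128726983-128727063 and encodes the beta1A tail, stood at 91.0 and 97.0 TPM in the alignment-based table. Itgb1-204, a partial model of 4 exons and 711 bases that holds the exon and the striated-muscle beta1D tail, stood at 42.8 and 41.4 TPM. The exon-holding form thus took 31.96 and 29.9% of the TPM of both models, and 34.8 and 32.4% with the second quantifier (30.9 ± 1.46% and 33.6 ± 1.75%). Because Itgb1-204 lacks the upstream exons, reads from there are given to Itgb1-201 whichever tail the message has, so the percentages are shares of annotated models and not of messages. By expected counts with no correction for length, Itgb1-201 held 92.8% of the gene.

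By TPM of annotated models, the tail of alpha7 was mostly that of Itga7-201, which skips the 113-base exon at chr10:128956611-128956723. Itga7-201 stood at 36.6 and 40.3 TPM, or 65.8 ± 2.78% of the gene, and Itga7-202, which skips the exon as well, at 5.35 and 6.63 TPM. Itga7-204, a partial model of 4 exons and 984 bases with the exon, stood at 14.4 and 11.9 TPM, with authors' credibility intervals of 11.9 to 16.3 and 9.89 to 13.9. The exon-holding share was then 25.6 and 20.3% (22.9 ± 3.74%). The second quantifier listed Itga7-204 at 0 and 0.706 TPM and gave a share of 0 and 1.34%. Itga7-204, like Itgb1-204, lacks the upstream exons, so this too is a share of annotated models and not of messages. The tables thus shared the main model of Itga7 but not the level of the model with the A tail.

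Itga7 also has a pair of alternative exons in its extracellular part, near the ligand-binding face. They are shown because these levels, unlike the tail, were close in both tables. Capitals mark bases that were identical in the alignment of both exons, which lie at chr10:128941822-128941941 and chr10:128941445-128941576.
alpha7 extracellular exon of Itga7-201: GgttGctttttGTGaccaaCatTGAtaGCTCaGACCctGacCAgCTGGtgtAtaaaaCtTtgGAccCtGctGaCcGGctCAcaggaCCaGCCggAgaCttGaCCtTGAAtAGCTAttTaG
alpha7 extracellular exon of Itga7-202: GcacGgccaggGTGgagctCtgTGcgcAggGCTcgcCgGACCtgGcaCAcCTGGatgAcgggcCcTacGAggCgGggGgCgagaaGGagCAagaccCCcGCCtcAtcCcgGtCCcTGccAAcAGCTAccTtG
The exons are 120 and 132 bases long, and 58 of 120 bases were identical (48.3%). This alignment held gaps, so its percentage cannot be set beside the ungapped ones of the tails. Neither this percentage nor those of the tails was set against unrelated sequences, so none is read as conservation. The exon of Itga7-201 took 87.2 and 85.9% of the TPM of both transcripts in the alignment-based table (86.6 ± 0.959%) and 85.4 ± 1.501% in the second. The exon of Itga7-202 took the remaining 13.4 ± 0.959% and 14.6 ± 1.501%.

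For Itga6 the 130-base tail exon at chr2:71853534-71853663 (Itga6-201 against Itga6-202) took 94.2 and 67.2% in the alignment-based table and 67.0 and 54.6% in the second. The A form was the larger in each mouse and table, with a spread between mice of 19.0 percentage points (SD) in the alignment-based table. Itga6-202 stood at 0.540 and 3.05 TPM, and the authors' credibility intervals, from 0.00 to 1.63 and from 1.43 to 4.73, overlapped. For Itga3 the 142-base tail exon at chr11:95046449-95046590 took 86.2 and 95.9% in the alignment-based table and 85.1 and 93.7% in the second. By TPM of these models, the A form was thus the larger for Itga3 and Itga6, and the B form for Itga7.

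**Figure D3:**
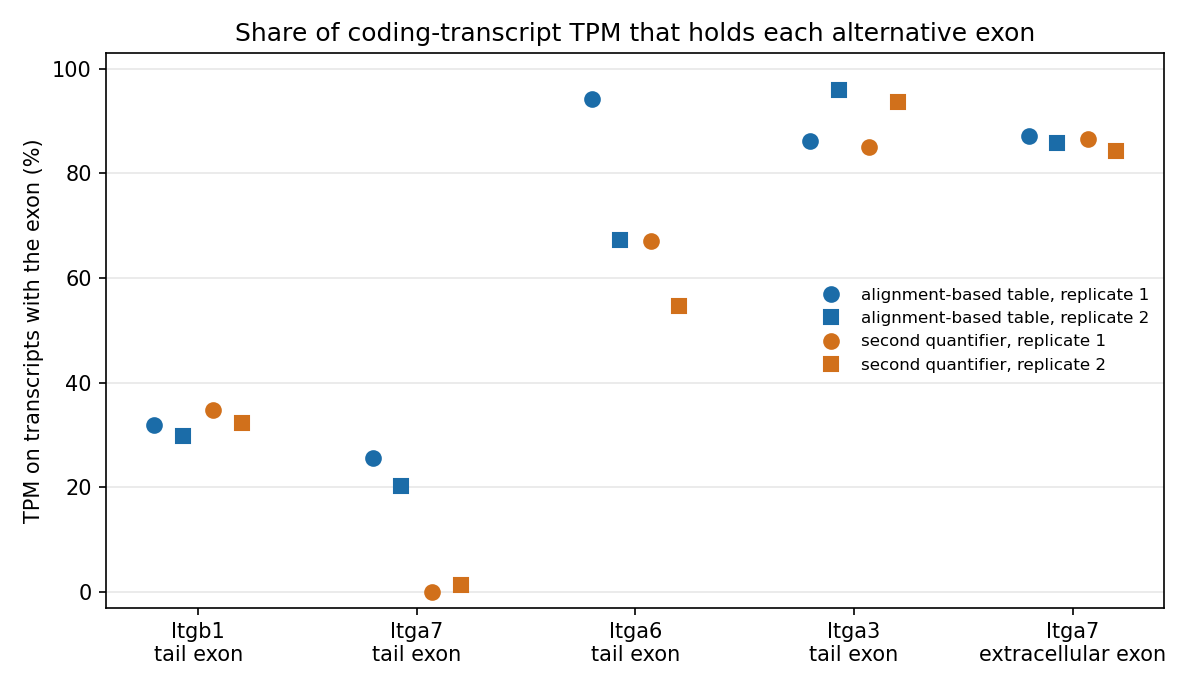
Percent of the TPM of protein-coding transcripts that hold or skip each of the 4 tail exons and the Itga7 extracellular exon which falls on those that hold it, with circles for replicate 1, squares for replicate 2, blue for the alignment-based table and orange for the second quantifier. The Itgb1 and Itga3 tail exons and the Itga7 extracellular exon have blue and orange points close together, and the Itga7 tail exon has blue points at 25.6 and 20.3% and orange points at 0 and 1.34%.

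Across the 62 annotated transcripts of the 10 genes, the transcript with the highest TPM was the same in both mice and both tables for 9 genes. Over all detected genes with several transcripts this held for 66.9% of 10343. The exception was Itga6, led by Itga6-201 in replicate 1 and by Itga6-203, a processed transcript, in replicate 2, and by Itga6-205 in the second table. Among protein-coding transcripts the leading one was the same for 10 of 10 genes, against 73.3% of 10068 genes. The leading transcripts of Itga9, Itga5, Itga3 and Itga8 held between 81.4 ± 7.58% (Itga8-201) and 95.2 ± 2.07% (Itga9-201) of their genes in the alignment-based table, and between 53.2 ± 4.86% (Itga9-201) and 70.2 ± 9.55% (Itga5-201) in the second. The rest in the second table lay largely on short or non-coding models. Itga5-204, a retained intron, held 28.8 ± 8.15% of Itga5 there against 5.16 ± 5.26% in the alignment-based table. The processed transcripts Itga9-204, Itga9-206 and Itga9-203 held 23.2 ± 1.12%, 13.4 ± 7.71% and 5.14 ± 7.27% of Itga9 there, and Itga9-206 and Itga9-203 were listed at 0 in the alignment-based table. For the low genes most of the minor models named here differed between the tables. In Itga3, led by Itga3-201, the retained intron Itga3-205 held 16.0 ± 0.324% in the second table against 2.51 ± 3.55% in the alignment-based table. The short coding Itga3-206 held 8.80 ± 1.80% in the second table and was listed at 0 in the alignment-based table. Itga3-203, the B form, was close in both, at 7.76 ± 4.69% and 7.91 ± 5.51%. In Itga8 the minor model of the alignment-based table was the retained intron Itga8-204 (14.2 ± 8.83%). In the second table they were Itga8-207, marked for nonsense-mediated decay, and the retained intron Itga8-202 (20.6 ± 14.3% and 7.87 ± 11.1%). Itgav and Itgb5 were more divided. Itgav-201 held 40.4 ± 4.94% of Itgav, beside the short coding models Itgav-205 (29.1 ± 1.73%) and Itgav-206 (23.4 ± 2.95%) of 463 and 688 bases. In the second table Itgav-205 stood at 4.45 and 0.432 TPM, the widest gap between the mice among these 3. Itgb5-202 held 60.5 ± 0.998% of Itgb5, followed by Itgb5-207 (22.04 ± 0.143%) and Itgb5-201 (17.1 ± 0.909%). In the second table Itgb5-202 still led but with 35.4 ± 2.70%, the order of the next 2 turned, with 27.8 ± 0.433% for Itgb5-201 and 26.6 ± 0.707% for Itgb5-207, and the processed transcript Itgb5-203 held 10.1 ± 3.83%.

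Part of the signal of these genes lay on transcripts that are annotated as other than protein-coding, such as retained introns and processed transcripts. Total RNA includes unspliced RNA, but its part in this share was not tested. In the alignment-based table this share was largest for Itga1, at 50.7 and 49.1% of its TPM, and for Itga6, at 43.0 and 45.1%. In Itga1 most of it was Itga1-206, a retained intron, with 5.10 and 5.68 TPM beside 6.30 and 6.80 TPM for the coding Itga1-201. In Itga6 most of it was Itga6-203, with 6.38 and 7.11 TPM. Itga8 followed with 18.6 ± 7.58%, and the other 7 genes had between 0.400 ± 0.0542% (Itgb5) and 8.79 ± 8.17% (Itga3). The median over the 10 genes was 5.44 ± 3.94%, and over 10065 detected protein-coding genes with several transcripts it was 7.63 ± 0.945%. With the second quantifier the medians were 23.6 ± 1.54% and 9.95 ± 1.06%, and the order of the genes was another. Itga6 came first there at 90.8 ± 0.975%, then Itga9 at 41.7 ± 1.55% and Itga1 at 38.2 ± 2.84%. Itga8, Itga5 and Itga3 had 33.4 ± 0.305%, 29.8 ± 9.55% and 18.9 ± 4.42%, and Itgb5 had 10.1 ± 3.83%. Itgav, Itga7 and Itgb1 were low in both tables, at 2.64 ± 0.339%, 1.49 ± 0.630% and 0.657 ± 0.167% in the second.

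Most of the remaining integrin genes were low in these hearts, and the 10 genes held 92.6 and 94.0% of the TPM of all 27. The lowest members were no higher than some of the others. By mean TPM, Itgb6 (7.82) lay above Itga3 (3.99) and Itga8 (2.37), and Itgam (2.81) and Itgb2 (2.82) lay above Itga8. Over all protein-coding genes, 49.8% reached 1 TPM in both mice. Of 8 other matrix-receptor subunits, 1 reached 1 TPM in both mice: Itgb6, a partner of alphav, at 7.59 and 8.04 TPM. Itgb5 was 4.64 ± 0.138 times Itgb6. The next of that list were Itgb3, the beta subunit of the platelet fibrinogen receptor and of a vitronectin receptor, at 1.77 and 0.900 TPM, and Itgb4, the hemidesmosome partner of alpha6, at 0.990 and 1.12 TPM. Itga4, a receptor subunit for fibronectin and VCAM1, stood at 1.15 and 0.640 TPM, and Itga2, Itga10, Itga11 and Itgb8 lay between 0.17 and 0.50 TPM. Of 9 leukocyte and platelet subunits, 3 reached 1 TPM in both mice: Itga2b, the platelet alpha subunit, at 3.53 and 1.20 TPM, and Itgam and Itgb2, which form a myeloid cell receptor, at 3.04 and 2.57 TPM and at 2.93 and 2.71 TPM. Itgb2l, a close relative of Itgb2, was listed at 0 in both, and Itgad, Itgae, Itgal, Itgax and Itgb7 lay between 0 and 1.02 TPM.

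Of these other subunits, Itga2b and Itgb3 were 2-fold or more apart between the mice, both higher in replicate 1, by 2.96-fold and 2.04-fold. Of all genes tested, 0.369% were 2-fold or more higher in replicate 1. Of the 6 platelet markers, which include Itga2b, 3 had enough counts to be compared and 2 of those were 2-fold or more higher in replicate 1, with a summed level of 42.3 TPM in replicate 1 and 20.0 TPM in replicate 2. None of the 6 was at 0 in either mouse. All 6 red cell markers were 2-fold or more higher in replicate 1, with sums of 20348 and 6413 TPM. The part of blood in the Itga2b and Itgb3 values was not tested.

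Basement membrane genes, which include the laminins and the type IV collagens, were mostly detected. Of 17 basement membrane genes, 14 reached 1 TPM in both mice, as 49.8% of all protein-coding genes did. The list median was 20.7 ± 0.700 TPM. It was 8.69 TPM over the protein-coding genes at or above 1 TPM in both mice, and 1.08 TPM over all protein-coding genes. Lamb2, the laminin beta2 chain, stood at 130.3 and 138 TPM, followed by Col4a1, a chain of type IV collagen, at 88.7 and 84.8 TPM. Hspg2, which encodes perlecan, stood at 65.3 and 66.8 TPM, and Col4a2 at 55.0 and 53.1 TPM. Lama2, the laminin alpha2 chain of muscle basement membrane, stood at 40.1 and 40.4 TPM and was 117 ± 7.79 times Lama1, the alpha1 chain found mostly in the embryo. Of the 17 genes, 16 had enough counts to compare the mice. None of the 16 was 2-fold apart, and 0.57% of all genes tested were.

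Of 17 interstitial and RGD-type ligand genes, 15 reached 1 TPM in both mice, as 49.8% of all protein-coding genes did. The list median was 8.18 ± 0.134 TPM, near the 8.69 TPM over protein-coding genes at or above 1 TPM in both mice. The highest were Mfge8, an RGD-bearing ligand of alphav receptors, at 48.8 and 51.1 TPM, and Col3a1, fibrillar collagen III, at 40.7 and 29.8 TPM. Col1a2, of collagen I, stood at 23.4 and 23.0 TPM, and Fn1, fibronectin, at 21.3 and 22.3 TPM. The alpha9 ligand genes Tnc (tenascin-C) and Spp1 (osteopontin) were low, at 0.10 and 0.060 TPM and at 0.280 and 0.150 TPM, while Svep1, another alpha9 ligand, stood at 1.41 and 1.61 TPM. Npnt, the nephronectin bound by alpha8, stood at 1.09 and 1.72 TPM.

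Inside the cell, 23 of 25 genes of the talin, kindlin and ILK adhesion complex reached 1 TPM in both mice, as 49.8% of all protein-coding genes did. The list median was 29.4 ± 0.849 TPM, against 8.69 TPM over protein-coding genes at or above 1 TPM in both mice. Actn2, the alpha-actinin of the Z-disc, led with 622 and 683 TPM and was 55.5 ± 1.12 times Actn1, the non-muscle form. Tns1, a tensin that binds beta tails and actin, stood at 280.0 and 287 TPM, Fermt2, the widely expressed kindlin, at 89.0 and 95.7 TPM, and Flnc, the muscle filamin, at 82.3 and 85.0 TPM. Fermt1, the epithelial kindlin, was listed at 0 in both mice. The talins Tln1 and Tln2, which bind the beta tail motif shown above, were closer to each other, with Tln1 1.36 ± 0.0492 times Tln2 (38.3 and 41.7 TPM against 29.0 and 29.96 TPM).

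All 12 genes of integrin regulators and membrane partners reached 1 TPM in both mice, as 49.8% of all protein-coding genes did. The list median was 21.9 ± 0.746 TPM, against 8.69 TPM over protein-coding genes at or above 1 TPM in both mice. The highest were the tetraspanins Cd81, at 154 and 162 TPM, and Cd151, which binds laminin-binding integrins, at 116 and 128 TPM. Itgb1bp2, which encodes melusin, a striated-muscle protein that binds the beta1 tail, stood at 68.5 and 70.3 TPM, and Rap1a, a small GTPase that promotes integrin activation, at 38.2 and 38.9 TPM. Of the 25 adhesion complex genes and 12 regulators, 23 and 12 had enough counts to compare the mice. None of those compared was 2-fold apart, and 0.57% of all genes tested were.

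**Figure D4:**
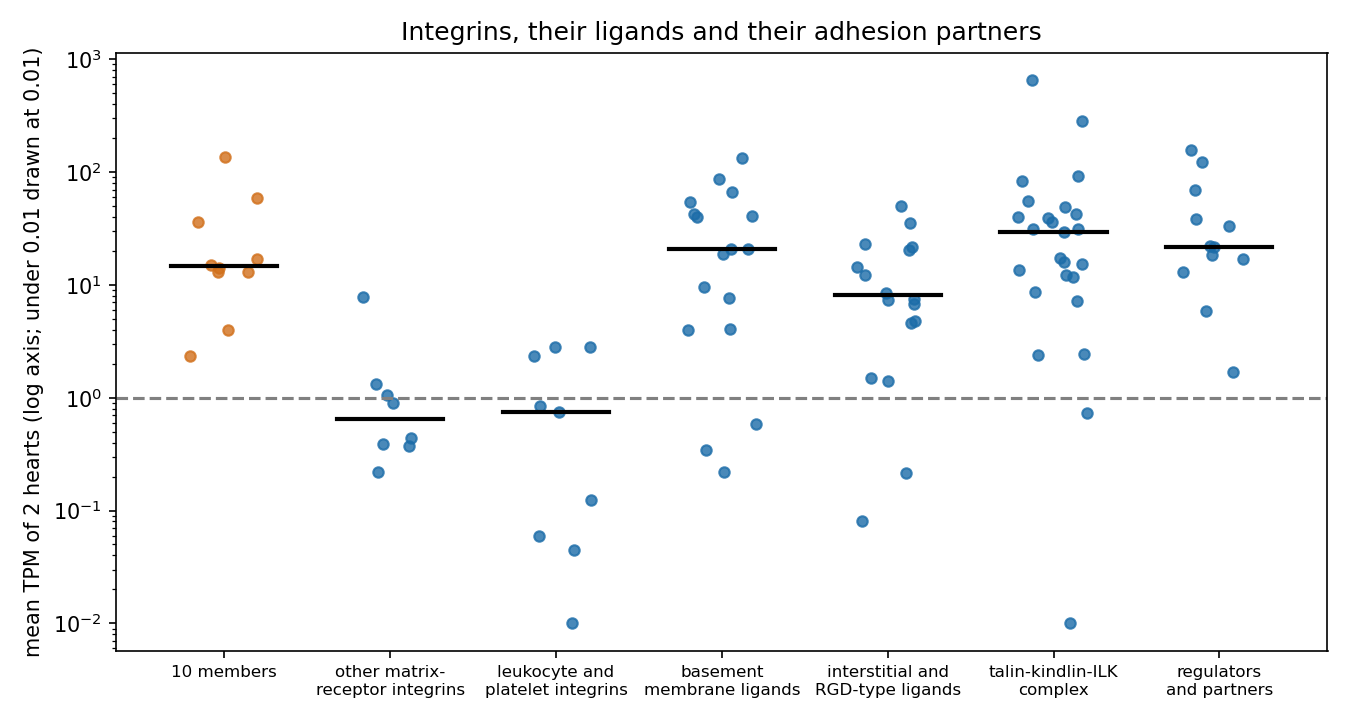
Mean TPM over both mice of each gene, on a log axis, for the 10 integrin genes (orange) and 6 lists of other integrins, ligands and intracellular partners (blue), with black bars at the list medians and a dashed line at 1 TPM. The ligand, adhesion complex and regulator lists have medians of 8.18 to 29.4 TPM, and both lists of other integrins have medians under 1 TPM.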

How the data were processed

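Total RNA was purified from hearts with a Norgen kit and 300 ng entered each library, per the labels' protocols. For each of the 2 mice the authors deposited a gene table and a transcript table derived from alignments, and another transcript table (the second table) made straight from the reads, with build mm10 and annotation GENCODE M21. The aligner, the quantifiers, their versions and any use of strand were not given in the sources used here. Reads of the CAST allele were quantified against mm10, and the effect was not tested. The deposited tables hold expected counts (estimated counts in the second table), TPM, posterior mean TPM, FPKM, the bounds of the authors' credibility intervals for TPM and the percent of a gene's expression in each isoform, per the file headers. The spike-ins (96 entries, 214409 and 223665 counts) and 26249 other entries (3 and 2 counts) were left out.

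Levels are TPM as deposited, given as the mean and SD over the mice. Expected counts were rounded, and ratios between mice are replicate 2 over replicate 1 with TMM factors from edgeR 4.0.16 (R 4.3.3) after filterByExpr. The prior count was 0.5, and the genes compared had a mean count of at least 50. After TMM the libraries differed in effective size by 0.23 on the log2 scale. Intervals are exact Clopper-Pearson at 95%, and as no molecular identifiers were used they cover only counting error. DESeq2 1.42.0 gave alternative size factors. An alternative exon is an exon of a coding transcript that lies inside an intron of another, and its share is the TPM of the transcripts that hold it over the TPM of those that hold or skip it. The extracellular exons were aligned with Biopython 1.88. The scripts ran in Python 3.11.15. The scaling and the 2-fold calls between mice were tested on simulated counts with known ratios, and the transcript and sequence steps were not. No p-value was computed, since there is 1 group.

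All 10 members are named. Of each list, up to 4 genes with the highest mean TPM, those under 0.1 TPM in both mice and those 2-fold apart are named, with all leukocyte and platelet integrins allowed; a few others, among them Tln1, Tln2, Lama1, Lama2, Tnc, Spp1, Svep1, Npnt, Actn1 and the marker genes, were named after their values were seen. Transcripts are named at 10% or more of a gene's TPM in either mouse and table. The members and lists were chosen with earlier results of these data known.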

Additional observations from a re-analysis of the deposited data

How the results depend on the processing

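No paired analysis was possible because both libraries belong to 1 group. The number of members at 1 TPM in both mice stayed at 10 with the second quantifier, posterior mean TPM, FPKM, rescaling to nuclear protein-coding genes and a 0.5 TPM threshold, and was 8 at 5 TPM. The count of neighbours apart was 8 in each of these scales except 7 after rescaling. The second table ordered the genes otherwise, with Itga6 at place 2, Itga9 at 5 and Itgav at 8, so its pairs were others. Its overlapping pair was Itga1 and Itgav, not Itga1 and Itga9. The number of members past 2-fold between mice was 0 under each scaling, prior count and filter tried and at 1.5-fold. With the second quantifier the Itgb1 to Itgb5 ratio was 3.48, the alpha to Itgb1 ratio 1.54, the laminin receptor share 70.2%, the Itga7-201 share 83.6%, the Itgb1-201 share 66.0% and the median non-coding share 23.6%. Leaving Itga6-205 out of that table, which was chosen after seeing the data, the 3 first values were 3.48, 0.951 and 51.7%. With posterior mean TPM they were 3.64, 1.02 and 57.2%. From expected counts not corrected for length, the Itga7-201 share was 80.6%, the Itgb1-201 share 92.8% and the median non-coding share 1.13%. Leaving out each mouse gave 3.75 to 3.83 for the Itgb1 to Itgb5 ratio, 0.995 to 0.999 for the alpha to Itgb1 ratio and 57.8 to 58.1% for the laminin receptor share. It gave 63.9 to 67.8% for Itga7-201, 67.4 to 69.4% for Itgb1-201 and 2.66 to 8.22% for the median non-coding share, which therefore depends on the mouse. Scaling to spike-in totals put the median log2 ratio between mice of all tested genes at 0.18, and 10 of 10 members, rather than 8, were then above 0, as they were with total counts, where the median was 0.05. The members' ratios on the spike-in scale lay between 0.15 (Itgb5) and 0.56 (Itga8). Apart from the transcript left out, the causes of these shifts were not tested.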
